A study of Homo sapiens with 2 samples.

Results

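The genes described here encode the Polycomb repressive complexes PRC1 and PRC2, the enzymes that write and erase DNA methylation, the deacetylase and remodelling complex NuRD, and the remodelling complex SWI/SNF. A list of 51 genes was matched to the probe sets of the array, and a gene was used where a probe set was annotated to that symbol alone. This gave 48 of the 51, among 19775 genes of the array with a probe set of their own. BMI1, RNF2 and CBX8 were not analysed here. Values are intensities on a linear scale, and each gene is represented by the probe set whose mean log2 over both arrays is highest, called its brightest, with the gene's other probe sets as a check.

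The measurements came from 2 single-colour Affymetrix arrays of SW620, an established human colorectal cancer line. SOX2, a transcription factor of stem and progenitor cells, was targeted in one culture by a short hairpin RNA delivered with lentivirus. The other received a non-targeting hairpin in the same way and is called mock knockdown. Both were grown in RPMI-1640 medium, and the sources used here do not give the number of hairpins, the time after infection or any selection. Each group held 1 array, so no difference could be tested and no value has a replicate error, which limits precision throughout. The titles of both samples end in KO while the source names read knockdown, and a description shared by both names liver of ECM1-deficient mice, which no other label matches.

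The median intensity was 68.1 on the SOX2 knockdown array and 69.0 on the mock array. The median over both arrays, 68.5, served as a floor, and 13609 genes reached it at their brightest probe set on at least 1 array, including all 48 measured members. SOX2 had an intensity of 20.9 on the SOX2 knockdown array and 2077 on the mock array, at least 30.3-fold lower when the dim value is taken at the floor, and 120 against 333 at the other of its probe sets that reached the floor. All 8 colorectal epithelial markers reached the floor on at least 1 array, but they did not move alike. EPCAM had 9898 on the SOX2 knockdown array and 8910 on the mock array, LGALS4 was at least 87.7-fold higher, with its mock value under the floor, CDH1 was 1.88-fold higher and VIL1 2.38-fold lower. ALB, the defining hepatocyte gene, and PTPRC, the defining leukocyte gene, lay under the floor on both arrays. The summed intensity of the 6 hepatocyte markers was 4733 on the SOX2 knockdown array and 730.1 on the mock array, of which SERPINA1 alone made 4301 and 313. The sums were 282 and 166 for 4 leukocyte markers, of which CD14, the only one to reach the floor, made 156 and 43.6, and 637 and 705 for 7 fibroblast and endothelial markers. The part of these markers in the results below was not tested.

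As background, DNA methyltransferases add methyl groups to cytosines that stand before a guanine, and TET enzymes oxidise these groups as a step towards their removal. PRC2 methylates histone H3 and PRC1 ubiquitinates histone H2A, and both marks go with gene silencing. NuRD joins histone deacetylases to a nucleosome remodelling ATPase, while SWI/SNF slides or evicts nucleosomes and often opposes Polycomb. In colorectal cancer the CG-rich promoters of many genes gain DNA methylation, and subunits of SWI/SNF such as ARID1A are often mutated.

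At their brightest probe set 2 of the 48 members were higher by at least 2-fold in SOX2 knockdown cells and 4 were lower by as much, together 12.5%. Among all 13609 genes 15.7% passed this limit, 8.44% higher and 7.29% lower, so the members' share lay near that of all genes. TET2 and GATAD2B were the higher ones, and CBX2, TET1, CBX6 and PCGF6 the lower ones. These counts use values as deposited: TET2 and TET1 each have a value under the floor, and with such values raised to the floor 1 member was higher and 3 were lower by at least 2-fold. Taking 1.5-fold as the limit, 6 members were higher and 9 lower, or 31.3%, against 29.8% of all genes. The median log2 difference of the members, SOX2 knockdown minus mock, was -0.10, and that of all genes was -0.0063. Below 0 lay 32 of the 48, or 66.7%, against 50.5% of all genes. These bulk values cannot tell fewer cells of a type from less RNA per cell.

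**Figure D1:**
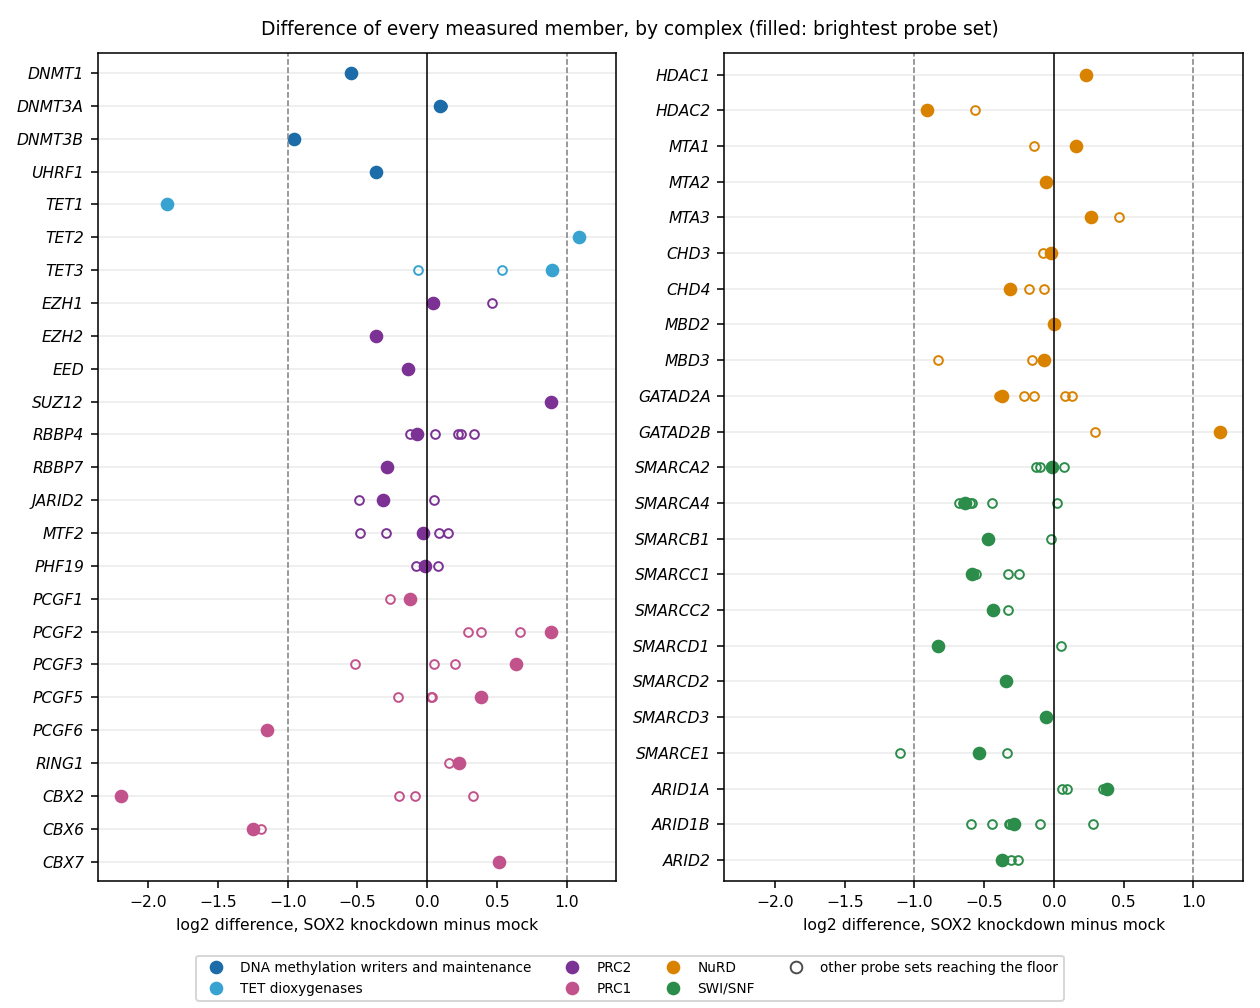
Log2 difference (SOX2 knockdown minus mock, x axis) of each of the 48 measured members, in rows by complex. Filled points are brightest probe sets, open points the gene's other probe sets that reached the floor, and dashed lines mark 2-fold either way. The SWI/SNF points lie mostly left of 0, and the PRC1 points spread from -2.19 for CBX2 to 0.88 for PCGF2.

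With no replicates, the spread that could be measured was that between different probe sets for the same gene on these arrays. Its SD was 0.49 on the log2 scale over 6440 genes, and it holds no variation between cultures. Of the 48 members 18 differed by more than this at the brightest probe set and 30 by less. All genes were not counted at this limit, so these numbers do not set the members apart. At the limit of 1.5-fold the members' share of 31.3% lay near the 29.8% of all genes. Several probe sets reached the floor in 32 members, and in 18 of these all went the same way. Ranges over probe sets given below cover those that reached the floor.

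The enzymes that write and maintain DNA methylation were lower or close to equal. DNMT1, which copies methylation after replication, had an intensity of 1950 on the SOX2 knockdown array and 2842 on the mock array, a log2 difference of -0.54. UHRF1, which brings DNMT1 to newly copied DNA, had 2776 on the SOX2 knockdown array and 3587 on the mock array, a difference of -0.37. The de novo enzyme DNMT3B stood at 113 on the SOX2 knockdown array and 218 on the mock array, a difference of -0.95, just short of 2-fold. DNMT3B was the member of this group that differed most, and it was measured by 1 probe set, as were DNMT1 and UHRF1. The probe sets of DNMT3B and DNMT1 are of a kind that can match other transcripts. DNMT3A, the other de novo enzyme, had 309 on the SOX2 knockdown array and 290 on the mock array, and its probe sets that reached the floor differed by 0.09 and 0.10. Of these 4 genes, 3 lay below 0 and 1 above.

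The TET enzymes split. TET1, known for its high level in embryonic stem cells, had an intensity of 31.6 on the SOX2 knockdown array and 115 on the mock array. Its value under the floor leaves a bound, at least 1.68-fold lower, beside a difference of -1.86 as deposited. The other probe set of TET1 lay under the floor on both arrays, with 12.6 on the SOX2 knockdown array and 34.7 on the mock array. TET2, often mutated in blood cancers, went the other way, with 111 on the SOX2 knockdown array and 52.0 on the mock array. Here too the dimmer value lay under the floor, so TET2 was at least 1.61-fold higher, and its remaining probe sets stayed under the floor with differences of 0.05 and 0.00. TET3, the TET enzyme of the egg and early embryo, had 630 on the SOX2 knockdown array and 339 on the mock array, a difference of 0.89. The other probe sets of TET3 gave 130 on the SOX2 knockdown array against 89.8 on the mock array, and 71.6 against 74.9, differences of 0.54 and -0.06. Thus the brightest probe set of TET1 was lower and those of TET2 and TET3 higher, with only the TET3 values above the floor on both arrays.

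The windows before the TET genes are shown because CG pairs are the bases these enzymes act on, and the family differed in direction. Each is the 250 bases before the start listed furthest upstream by RefSeq in GRCh38.p14, printed 5′ to 3′ on the gene's strand with CG pairs in capitals. The windows are TET1 at chr10:68560087-68560336, TET2 at chr4:105145625-105145874 and TET3 at chr2:73984660-73984909, all on the plus strand. RefSeq lists further starts for each of these genes.
TET1: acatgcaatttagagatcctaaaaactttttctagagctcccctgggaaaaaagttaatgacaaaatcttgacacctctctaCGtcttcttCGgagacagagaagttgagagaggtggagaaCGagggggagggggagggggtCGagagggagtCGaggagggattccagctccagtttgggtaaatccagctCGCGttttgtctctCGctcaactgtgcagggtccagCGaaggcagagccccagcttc
TET2: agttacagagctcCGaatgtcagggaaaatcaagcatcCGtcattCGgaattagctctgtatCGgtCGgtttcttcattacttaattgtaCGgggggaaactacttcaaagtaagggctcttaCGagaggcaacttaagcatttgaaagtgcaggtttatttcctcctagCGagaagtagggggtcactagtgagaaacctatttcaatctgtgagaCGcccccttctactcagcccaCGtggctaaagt
TET3: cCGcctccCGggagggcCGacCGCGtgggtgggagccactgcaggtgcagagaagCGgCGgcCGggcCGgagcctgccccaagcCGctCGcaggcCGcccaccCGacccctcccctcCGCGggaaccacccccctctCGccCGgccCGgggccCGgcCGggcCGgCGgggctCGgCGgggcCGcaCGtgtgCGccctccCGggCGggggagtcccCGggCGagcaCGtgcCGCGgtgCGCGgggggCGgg
The TET1 window held 9 CG pairs, the TET2 window 10 and the TET3 window 37. A window was found for 46 of the 51 members, with a median of 25.5 CG pairs and a range of 1 to 45, while the median over 27305 genes, non-coding ones included, was 10. At least 1 CG pair stood in 93.6% of all windows. The letters ACAAT are a form of the core bound by SOX proteins, and ATTGT is that form on the other strand. Other forms of the core were not searched. Either stood in 4 of the 46 member windows, those of TET2, PCGF6, SUZ12 and MTF2, and in 25.3% of all windows. In TET2 the match began at position -166 from the start. Methylation and binding were not measured.

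**Figure D2:**
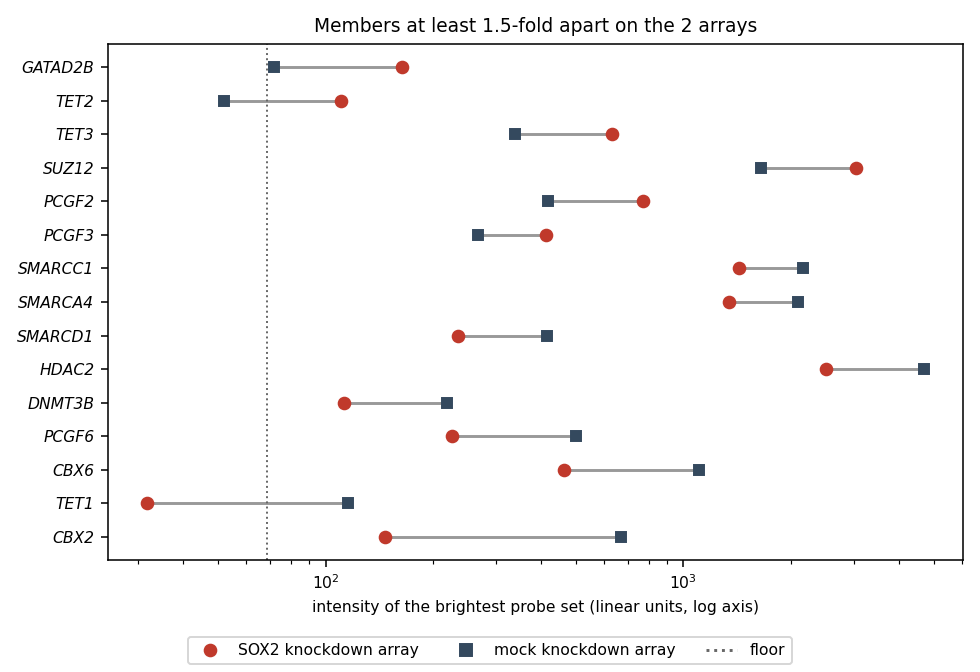
Intensity of the brightest probe set (x axis, linear units on a log axis) on the SOX2 knockdown array (circles) and the mock array (squares) for the 15 members at least 1.5-fold apart, ordered by difference. The dotted line is the floor of 68.5, and the lower TET1 value of 31.6 and the lower TET2 value of 52.0 lie left of it.

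PRC2 differed little apart from SUZ12. None of its 9 members reached 2-fold, a limit that 15.7% of all genes passed, and the median was -0.07. Within 0.25 of 0 lay 5 of the 9, beside 6086 of all 13609 genes. The catalytic subunit EZH2 had an intensity of 1178 on the SOX2 knockdown array and 1520 on the mock array. EZH2 thus differed by -0.37, on 1 probe set of a kind that can match other transcripts. Its paralog EZH1, typical of non-dividing cells, had 219 on the SOX2 knockdown array and 213 on the mock array, a difference of 0.04, though another of its probe sets differed by 0.47. EED, which binds the methyl mark, differed by -0.14, with 2262 on the SOX2 knockdown array and 2489 on the mock array. SUZ12, the scaffold of the complex, had 3043 on the SOX2 knockdown array and 1642 on the mock array, a difference of 0.89. SUZ12 was thus the one core subunit that stood apart from the others, 1.85-fold higher at the only one of its probe sets that reached the floor.

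The remaining PRC2 subunits lay near or below 0. The histone chaperones RBBP4 and RBBP7, shared with NuRD, differed by -0.07 and -0.29. RBBP7 was measured by 1 probe set, with 4069 on the SOX2 knockdown array and 4975 on the mock array, and the 6 probe sets of RBBP4 ranged from -0.13 to 0.34. JARID2, which helps bring PRC2 to DNA, differed by -0.32, with 278 on the SOX2 knockdown array and 346 on the mock array, and its other probe sets by -0.49 and 0.05. The Polycomb-like proteins MTF2 and PHF19 differed by -0.03 and -0.01, and the 5 probe sets of MTF2 ran from -0.48 to 0.15.

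PRC1 held 3 of the 4 lower members and a spread in both directions. Those 3 were 33.3% of its 9 measured genes, against 7.29% of all genes that were lower by as much. On the list of PRC1 and related partners described below, 16 genes reached the floor. Of these 1 was at least 2-fold higher and 0 were lower by as much. CBX2, a chromodomain subunit of canonical PRC1 that compacts nucleosomes, had an intensity of 147 on the SOX2 knockdown array and 671 on the mock array. The difference of -2.19, or 4.58-fold lower, was the largest of any member at its brightest probe set. The other 3 probe sets of CBX2 did not share it, with 119, 92.0 and 75.6 on the SOX2 knockdown array against 94.7, 97.9 and 87.0 on the mock array. Their differences were 0.33, -0.09 and -0.20, and all 3 lay close to the floor. The mean over the 4 probe sets was -0.54.

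CBX6, a further chromodomain subunit, was lower at both of its probe sets. They gave 464 and 204 on the SOX2 knockdown array, against 1103 and 466 on the mock array. The differences were -1.25 and -1.19. Among the lower members only CBX6 and CBX2 had several probe sets that reached the floor. Both probe sets of CBX6, like the only one of PCGF6, are of a kind that can match other transcripts. CBX7, the chromodomain subunit known from embryonic stem cells, went the other way, with 207 on the SOX2 knockdown array and 145 on the mock array, a difference of 0.51 on 1 probe set. Of the CBX subunits measured here, CBX2 and CBX6 were lower and CBX7 higher, the last by 1.43-fold.

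The PCGF subunits, each of which defines a version of PRC1, also went both ways. PCGF6, which joins the variant complex that silences germline genes in mouse embryonic stem cells, had 226 on the SOX2 knockdown array and 500.0 on the mock array, a difference of -1.15 on its only probe set. PCGF2, the partner of canonical PRC1 also called MEL18, had 770.5 on the SOX2 knockdown array and 417 on the mock array, a difference of 0.88. All 4 probe sets of PCGF2 were higher, from 0.29 to 0.88, and all are of a kind that can match other transcripts. PCGF3 differed by 0.63, with 414 on the SOX2 knockdown array and 267 on the mock array, but its other probe sets that reached the floor ranged from -0.52 to 0.20. PCGF5 differed by 0.38 and its other probe sets that reached the floor by -0.21 to 0.03, while PCGF1, of the variant complex with KDM2B, differed by -0.13 and -0.27. The ubiquitin ligase subunit RING1 had 864 on the SOX2 knockdown array and 738 on the mock array, a difference of 0.23. The median over the 9 measured PRC1 members was 0.23, with 5 above 0 and 4 below. It was 0.03 with each gene's probe set of smallest difference, 0.06 with the mean over probe sets and 0.05 when the floor was raised to the 75th percentile.

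The windows before CBX6 and PCGF6 are shown as those of the lower PRC1 members that RefSeq's table matched. They are CBX6 at chr22:38872217-38872466 and PCGF6 at chr10:103351141-103351390, both on the minus strand of GRCh38.p14, printed as above with CG pairs in capitals.
CBX6: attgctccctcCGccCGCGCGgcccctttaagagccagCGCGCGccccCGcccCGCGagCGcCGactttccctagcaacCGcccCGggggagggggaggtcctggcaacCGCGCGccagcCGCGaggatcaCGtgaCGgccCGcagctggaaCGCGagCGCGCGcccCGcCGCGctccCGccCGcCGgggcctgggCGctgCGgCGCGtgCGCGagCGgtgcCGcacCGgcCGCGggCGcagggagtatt
PCGF6: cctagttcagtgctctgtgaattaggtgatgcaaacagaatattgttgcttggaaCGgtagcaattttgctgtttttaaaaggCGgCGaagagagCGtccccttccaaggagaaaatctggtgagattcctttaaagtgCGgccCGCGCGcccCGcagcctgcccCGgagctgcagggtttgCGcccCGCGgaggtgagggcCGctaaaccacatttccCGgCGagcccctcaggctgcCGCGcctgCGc
The CBX6 window held 45 CG pairs, the highest count of any member, and the PCGF6 window 19. In PCGF6 the letters ATTGT began at position -209, and the CBX6 window held neither ACAAT nor ATTGT.

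NuRD differed mainly in HDAC2 and GATAD2B. Of its 11 members 6 lay within 0.25 of 0, beside 6086 of all 13609 genes, and the median was -0.02. HDAC2, a class I histone deacetylase, had an intensity of 2509 on the SOX2 knockdown array and 4710 on the mock array, a difference of -0.91, and 102 against 151 at its other probe set, a difference of -0.56. HDAC1, its close paralog, had 4995 on the SOX2 knockdown array and 4269 on the mock array, a difference of 0.23. The deacetylases of the complex therefore differed in opposite directions, HDAC2 by 1.88-fold and HDAC1 by 1.17-fold. The difference of HDAC1 lay within the SD of 0.49 between probe sets.

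GATAD2B, a scaffold that ties the deacetylase and remodelling parts of NuRD together, had 164 on the SOX2 knockdown array and 72.0 on the mock array. The difference of 1.19 was the highest of any member, with the mock value close to the floor of 68.5. Its other probe set had 117 on the SOX2 knockdown array and 95.1 on the mock array, a difference of 0.29. The paralog GATAD2A had 1110 on the SOX2 knockdown array and 1436 on the mock array, a difference of -0.37, and its 6 probe sets ranged from -0.39 to 0.13. The ATPase CHD4 had 1020 on the SOX2 knockdown array and 1269 on the mock array, a difference of -0.32, while its paralog CHD3 differed by -0.02. The methyl-binding MBD2, at 665 on the SOX2 knockdown array and 664 on the mock array, differed by 0.0021, and MBD3 by -0.07 with other probe sets at -0.16 and -0.83. The histone-tail binding subunits MTA1, MTA2 and MTA3 differed by 0.16, -0.06 and 0.26. The other probe set of MTA1 went the opposite way, at -0.14, and that of MTA3 differed by 0.47.

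SWI/SNF was the group in which nearly all members lay on the same side. Of its 12 members 11 were below 0, or 91.7% against 50.5% of all genes, with a median of -0.40, but none reached 2-fold and 3 reached 1.5-fold. With each gene's probe set of smallest difference the median was -0.08. The lean covers these 12 members only. Of 16 further SWI/SNF genes, among the partners described below, 8 lay above 0 and 8 below, with a median of 0.05. SMARCA4, the ATPase also called BRG1, had an intensity of 1337 on the SOX2 knockdown array and 2085 on the mock array, a difference of -0.64. Of the 7 probe sets of SMARCA4 that reached the floor 6 differed by -0.68 to -0.45, and the dimmest of them, at 74.1 and 73.0, by 0.02. SMARCA2, the alternative ATPase also called BRM, had 466 on the SOX2 knockdown array and 471 on the mock array, a difference of -0.01, and its 4 probe sets that reached the floor ranged from -0.13 to 0.07. SMARCA4 was thus 1.56-fold lower and SMARCA2 within 1.01-fold, and the contrast between them was not tested.

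The core and accessory subunits followed. SMARCC1, a core subunit also called BAF155, had 1432 on the SOX2 knockdown array and 2156 on the mock array, a difference of -0.59, with all 4 probe sets between -0.59 and -0.25. SMARCC2, or BAF170, differed by -0.44 and -0.33, and SMARCB1, lost in rhabdoid tumours, by -0.48 at its brightest probe set and -0.02 at the other that reached the floor. SMARCE1, or BAF57, had 1816 on the SOX2 knockdown array and 2634 on the mock array, a difference of -0.54, and its other probe sets that reached the floor differed by -0.34 and -1.10. SMARCD1 had 234 on the SOX2 knockdown array and 417 on the mock array, a difference of -0.83, the lowest of the complex, but its other probe set had 76.2 and 73.7, a difference of 0.05. SMARCD2 differed by -0.34 and SMARCD3, at 71.0 on the SOX2 knockdown array and 74.0 on the mock array, stood close to the floor.

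The ARID subunits, which define the form of the complex, went both ways. At the brightest probe set each differed by less than the SD of 0.49 between probe sets. ARID1A had 1150 on the SOX2 knockdown array and 884 on the mock array, a difference of 0.38, and all 4 of its probe sets lay above 0, from 0.05. ARID1B, its alternative, differed by -0.29, with 729 on the SOX2 knockdown array and 890 on the mock array, and its 7 probe sets ranged from -0.59 to 0.28. ARID2, of the PBAF form, had 290 on the SOX2 knockdown array and 375 on the mock array, a difference of -0.37, and its probe sets lay between -0.37 and -0.26. ARID1A was the only SWI/SNF member above 0 at its brightest probe set.

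**Figure D3:**
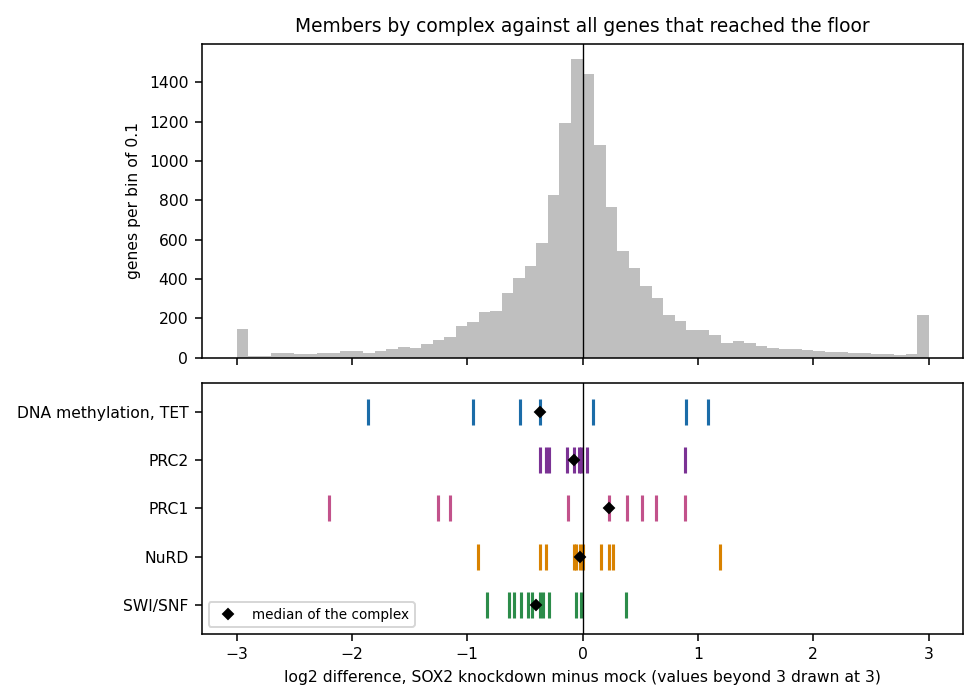
Upper panel, number of genes per bin of 0.1 in log2 difference (SOX2 knockdown minus mock) for the 13609 genes that reached the floor. Lower panel, each measured member as a tick and the median of each group drawn as a diamond, from -0.40 for SWI/SNF to 0.23 for PRC1. The DNA methylation and TET genes are drawn as 1 group, with a median of -0.37. Taken apart, their medians were -0.46 and 0.89.

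Some members stood among genes that differed in the same direction, and others did not. For each member the 10 genes on either side that reached the floor were taken in RefSeq's gene order. Around HDAC2 on chromosome 6, 18 of 20 neighbours lay below 0, 6 of them by at least 2-fold, with a median of -0.78 beside the gene's own -0.91. Around TET2 on chromosome 4, 17 of 20 neighbours lay above 0, 5 of them by at least 2-fold, with a median of 0.68. Around PCGF2 on chromosome 17 the median was 0.61, and around TET1 on chromosome 10 it was -0.39. The other members at least 2-fold apart stood in neighbourhoods near 0, with medians of -0.03 for CBX2, -0.06 for CBX6, 0.05 for PCGF6 and 0.10 for GATAD2B. CHD3 and MBD2, at -0.02 and 0.0021, stood in neighbourhoods with medians of -0.46 and 0.42, where 17 of 20 genes lay below 0 around CHD3 and 15 of 20 above 0 around MBD2. The medians were -0.76 around RBBP7 and -0.66 around ARID1B, both of which differed by -0.29. Around the SWI/SNF members the medians ran from -0.66 for ARID1B to 0.27 for ARID1A. They were -0.36 for SMARCD2 and -0.31 for SMARCC2, but -0.02 for SMARCA4 and 0.23 for SMARCD3. The part of these neighbourhoods in the members' differences was not tested.

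Further genes related to these complexes or to DNA methylation, called partners here, were taken from lists of 60 genes, of which 55 reached the floor. At least 2-fold higher were 2 and at least 2-fold lower 3, together 9.09%, against 15.7% of all genes, and the median was -0.11. The higher ones were the PRC1 subunit PHC3, with 855 on the SOX2 knockdown array and 414 on the mock array, and SS18L1, a SWI/SNF subunit, with 779 on the SOX2 knockdown array and 387 on the mock array. The differences were 1.05 and 1.01, and 2 other probe sets of PHC3 differed by 0.06 and -0.23. All 3 lower partners stood on the list drawn up for DNA methylation readers and repair, and none of them is a subunit of the complexes above. The cytidine deaminase APOBEC3B had 457 on the SOX2 knockdown array and 2342 on the mock array, a difference of -2.36.

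The stress-induced GADD45A and GADD45B, which have been linked to DNA demethylation, were the others. GADD45A had 1096 on the SOX2 knockdown array and 3359 on the mock array, a difference of -1.62. GADD45B had 181 on the SOX2 knockdown array and 531 on the mock array, a difference of -1.55, and its other probe sets ranged from -2.88 to -0.25. BRD7, a subunit of the PBAF form of SWI/SNF, fell short of 2-fold at its brightest probe set, with 1239 on the SOX2 knockdown array and 2384 on the mock array, while its other probe sets differed by -1.46 to -0.74. BRD7 was picked out after its values were seen, and 19 of the 20 genes around it on chromosome 16 also lay below 0.

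Genes whose promoters are often methylated in colorectal cancer are a class on which these enzymes act, and 19 of 28 listed reached the floor. At least 2-fold higher was 1 and at least 2-fold lower were 3, or 21.1%, against 15.7% of all genes, with a median of -0.09. The 3 lower ones, HLTF, CHFR and DKK3, are counted by values as deposited, and against the floor DKK3 does not reach 2-fold. MGMT, which repairs alkylated guanine, had 649 on the SOX2 knockdown array and 65.7 on the mock array, a difference of 3.30 as deposited and at least 9.47-fold higher against the floor. HLTF, a helicase-like relative of the SWI/SNF ATPases, had 15.6 on the SOX2 knockdown array and 924 on the mock array, at least 13.5-fold lower. Both rest on 1 probe set each, and the medians of their neighbours were 0.08 and 0.31. The checkpoint ubiquitin ligase CHFR had 143 on the SOX2 knockdown array and 309 on the mock array, a difference of -1.11, and -0.80 at its other probe set that reached the floor. DKK3, a secreted protein of the Dickkopf family, had 37.2 on the SOX2 knockdown array and 90.4 on the mock array, at least 1.32-fold lower.

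RUNX3, a transcription factor on the same list, was picked out after its values were seen because its probe sets disagreed. The brightest had 172 on the SOX2 knockdown array and 176 on the mock array, a difference of -0.03. The others had 54.7 and 26.0 on the SOX2 knockdown array, against 357 and 308.5 on the mock array, differences of -2.70 and -3.57 as deposited. Their SOX2 knockdown values lay under the floor of 68.5. All 3 probe sets of RUNX3 are of a kind that can match other transcripts. Of 16 germline genes with promoters methylated in somatic cells 14 lay under the floor on both arrays, and the other 2, RPL10L and TEX101, differed by 0.34 and 0.14.

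The windows before MGMT and HLTF are shown because these target genes had the largest differences. They are MGMT at chr10:129466991-129467240 on the plus strand and HLTF at chr3:149086534-149086783 on the minus strand of GRCh38.p14, with CG pairs in capitals.
MGMT: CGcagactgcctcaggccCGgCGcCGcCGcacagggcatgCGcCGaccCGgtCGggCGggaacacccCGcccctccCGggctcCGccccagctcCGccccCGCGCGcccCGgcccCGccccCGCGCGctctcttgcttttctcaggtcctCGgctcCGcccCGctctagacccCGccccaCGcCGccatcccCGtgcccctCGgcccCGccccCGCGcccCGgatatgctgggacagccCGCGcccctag
HLTF: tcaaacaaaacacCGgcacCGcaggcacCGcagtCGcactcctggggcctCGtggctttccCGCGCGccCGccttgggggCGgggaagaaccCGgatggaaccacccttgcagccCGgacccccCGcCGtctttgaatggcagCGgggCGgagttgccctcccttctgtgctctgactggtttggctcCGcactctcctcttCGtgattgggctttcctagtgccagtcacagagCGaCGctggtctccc
The MGMT window held 36 CG pairs and the HLTF window 20. Neither held ACAAT or ATTGT.

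**Figure D4:**
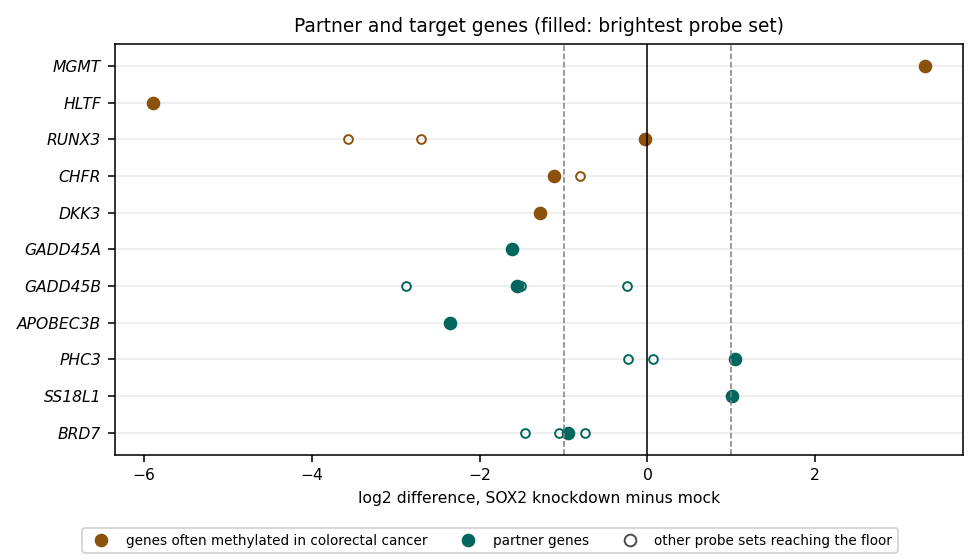
Log2 difference (SOX2 knockdown minus mock, x axis, as deposited) of target genes often methylated in colorectal cancer and of partner genes. Filled points are brightest probe sets, open points others that reached the floor, and dashed lines mark 2-fold. MGMT lies at 3.30 and HLTF at -5.89, and the open points of RUNX3 lie far left of its filled point at -0.03.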

How the data were processed

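Per the labels' protocols, total RNA of 2 SW620 cultures was labelled and hybridized to 1 Affymetrix 3′ array each. The authors deposited an intensity for each probe set, made with RMA, which corrects background, normalizes quantiles and summarises probes, per the submitters' processing notes. Its version, and whether other arrays were normalized with these, is not stated. Values reach 23253, so they are linear, and they carry no detection calls.

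Of 54613 probe sets apart from 62 controls, the platform annotation gave 1 symbol to 41091, several to 1801 and none to 11721, and Entrez identifiers found 41037 in RefSeq's gene table. From the deposited intensity log2 was taken with no pseudocount. The floor, the limit of 2-fold and the choice of probe set are given in the text, and bounds take the dim value at the floor. All 48 measured members were named, partners and targets only past 2-fold unless stated. The members and lists were chosen with earlier results of these data known. The calling step was tested on simulated data. The alternatives changed the scaling, floor, probe set, pseudocount and limit. Scripts ran in Python 3.11.15 with pandas 2.3.3 and numpy 2.4.6, and figures were drawn with matplotlib 3.10.9.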

Additional observations from a re-analysis of the deposited data

How the results depend on the processing

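The 2 members at least 2-fold higher became 0 with the floor at the 75th percentile, 0 with a pseudocount of 32 and 0 with a limit of 3-fold. They became 1 when a value at the floor was required on each array, 1 with values raised to the floor, 1 with the mean over probe sets and 1 with the probe set of smallest difference, and 6 with a limit of 1.5-fold. The 4 lower members became 2 when probe sets open to several transcripts were left out, which kept 33 members, 2 with a limit of 3-fold and 9 with a limit of 1.5-fold. They became 3 in 5 settings, the floor at the 75th percentile, a value at the floor required on each array, values raised to the floor, the mean over probe sets and the probe set of smallest difference. The 75th percentile floor kept 42 members, whose median was -0.21. Counting a member only when all its probe sets that reached the floor went the same way, chosen after seeing the data, gave 2 higher and 3 lower. The 16 members with 1 such probe set pass by construction, TET1, TET2 and PCGF6 among them. Of the members counted, only GATAD2B and CBX6 had several probe sets to compare. The causes were not tested beyond what each setting leaves out. The sign of the difference held in all settings run for 37 of 48 members, the 6 at least 2-fold apart among them. With the probe set of smallest difference CBX2 was at -0.09, GATAD2B at 0.29 and the SWI/SNF median at -0.08. The median over the 7 DNA methylation and TET genes was -0.37. Leaving out probe sets open to several transcripts dropped DNMT1 and DNMT3B, and the median of the 5 genes kept was 0.09. The scalings and other settings moved the median of all genes to between -0.016 and 0.014. No paired analysis was possible because each group held 1 array, so no replicate could be left out either.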

Other observations

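Chromatin regulators outside the complexes above were listed after the data had been seen, so their counts are descriptions. Of 86 such genes that reached the floor 2 were at least 2-fold higher and 8 at least 2-fold lower, or 11.6%, against 15.7% of all genes. The class IIa deacetylase HDAC4 had an intensity of 317 on the SOX2 knockdown array and 1545 on the mock array, with its 3 probe sets between -2.60 and -1.25. HDAC9, of the same class, had 69.3 on the SOX2 knockdown array and 374 on the mock array, a difference of -2.43 on the only one of its probe sets that reached the floor. The demethylase KDM7A was lower at both probe sets, with 114 on the SOX2 knockdown array and 469 on the mock array at the brightest. SMARCA1, an ISWI remodeller, had 396 on the SOX2 knockdown array and 1250 on the mock array, a difference of -1.66. The histone methyltransferases SETDB2 and SMYD3, the acetyltransferase KAT6A and the repressor PRDM1 were the other lower genes, with differences of -1.70, -1.23, -1.02 and, against the floor, -1.64 or lower. The other probe sets of PRDM1 differed by -0.06 and -0.32. The remodeller CHD2, picked out after its values were seen, was not counted as lower, at -0.21 at its brightest probe set. Its other probe sets that reached the floor differed by -2.27 to -1.58. The methyltransferase SETD7, with 1601 on the SOX2 knockdown array and 482 on the mock array, and the demethylase KDM5B, at 1.02, were the higher ones. Among heterochromatin proteins CBX5, which binds methylated histone H3, differed by -0.91 at its brightest probe set and by -2.47 to 0.06 over the 5 that reached the floor.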
